A study of Mus musculus with 14 samples.

Results

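Lbh (limb bud and heart; Entrez gene 77889, ENSMUSG00000024063) is described here in Y1 cells together with the acetylated chromatin regions around it. It was 1 gene of 24465 in the RNA count tables. Of 40772 regions in the authors' deposited table of histone H3 lysine 27 acetylation (H3K27ac), the authors annotated 13 to Lbh, and another 8 lay within 200 kb of the gene, 2 of them annotated to Ypel5 and 6 to Lclat1. The 21 regions were taken by annotation and position. Lbh was chosen because its transcript and its regions were already known to differ between the treatments, so its own values and those of its 13 regions are given as a description, with no test made here. Marks from the authors' own test are given as theirs.

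Lbh encodes a small acidic nuclear protein that acts as a transcriptional co-regulator. It was named for its expression in the limb bud and heart of the embryo, and in other epithelia it is known as a target of canonical Wnt signalling. H3K27ac is deposited on nucleosomes at active promoters and enhancers and is widely used to find both. FGF-2, a fibroblast growth factor, binds receptor tyrosine kinases and activates the RAS-ERK cascade.

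Y1 is an established line of mouse adrenocortical tumour cells. In both groups serum was withdrawn for 48 h before cells were given 10% fetal bovine serum, either alone or with 10 ng/ml FGF-2, for 5 h. Poly(A) RNA was sequenced from 3 libraries per group and H3K27ac chromatin from 2 per group, each with its own input. Nothing in the labels says whether the libraries came from separate cultures, so the p-values below measure the spread between these libraries, which may be technical.

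The RNA libraries held 5625004 to 12696426 counts in genes, fewest in serum library 3, and the chromatin libraries 11840994 to 14156846 fragments. The input of serum library 2 held 110273836 fragments against 12241177 to 15672630 in the others, and 28.0% of that library's own fragments lay in the table's regions against 34.1% to 35.3%. Replicates differed by more than sampling noise in both assays. Of 10374 genes tested with edgeR's quasi-likelihood test, 46.3% were called at an adjusted p under 0.05 (22.1% higher with FGF-2 and 24.2% lower). Adrenocortical markers made up 847 to 1096 CPM (counts scaled to a library size corrected by TMM, which allows for a few genes taking a large share of the reads) with serum alone and 2351 to 3831 with FGF-2. Of the 7 tested markers, 1 was called higher (Star, the cholesterol carrier of steroid synthesis, mean 165 CPM with serum alone and 2294 with FGF-2). The 3 called lower were Cyp11a1 (124 to 73.6), Fdxr (177 to 87.3) and Cyp11b1 (9.22 to 3.45), and Nr0b1 is listed at 0. The Cyp11a1 groups overlapped, with FGF-2 library 3 at 107, and its edgeR adjusted p was 0.0454. Fibroblast and capsule markers summed to 3058 to 3819 CPM with serum alone and to 2233 to 3097 with FGF-2, with Col1a2 and Dcn listed at 0. Most of this sum was Col1a1 alone, at 2506 to 3172 CPM with serum alone and 1828 to 2632 with FGF-2. Of the 5 tested, 0 were called higher and 1 lower (Col3a1, 298 to 217 CPM, with overlapping groups). Medulla markers (Th and Dbh at 0) summed to at most 7.01 CPM and endothelial and blood markers (Tek, Hba-a1 and Hbb-bs at 0) to at most 8.18, both in the serum group. A marker listed at 0 was not read as absent, for the reason given with Ypel5 below, and these sums carry the same limit. In bulk RNA, fewer cells expressing a gene and less RNA per cell cannot be told apart.

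The Lbh transcript was read 888, 610 and 544 times in the serum libraries and 7168, 6557 and 4386 times in the FGF-2 libraries. As TMM-scaled CPM these were 84.8, 64.8 and 90.2 with serum alone and 698, 578 and 793 with FGF-2. The groups did not overlap: the lowest FGF-2 library stood 6.41-fold above the highest serum library. The same held for 57.5% of all tested genes.

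**Figure D1:**
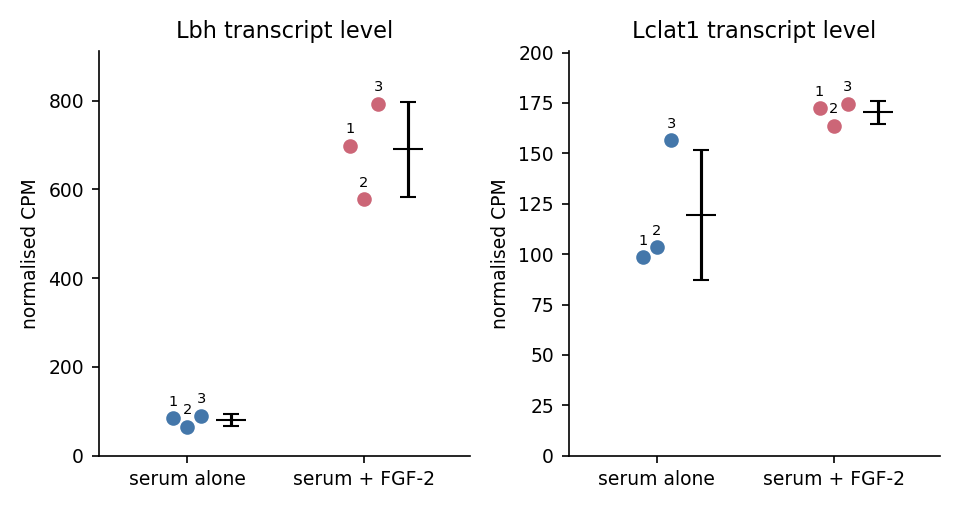
Transcript level of Lbh (left) and of its neighbour Lclat1 (right) in normalised CPM, with 1 point per library, numbered by replicate, and the mean ± SD of 3 libraries beside them. Lbh lies at 64.8 to 90.2 CPM with serum alone and at 578 to 793 with FGF-2, while the Lclat1 groups are close, with serum library 3 near the FGF-2 libraries.

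Mean Lbh was 79.9 ± 13.3 CPM with serum alone and 690 ± 108 with FGF-2 (SD, n = 3 each), a log2 fold change of 3.11 ± 0.17 (SE), or 8.63-fold. The relative spread was alike in the groups, with a coefficient of variation of 16.7% for serum alone and 15.6% for FGF-2. Lbh ranked 127 of 10374 tested genes by fold change. Among the 8790 genes with a serum mean of at least 5 CPM it ranked 38, so most genes ahead of it had a serum mean below that. Scaled to library totals alone, the median of all tested genes moved from -0.02 to -0.36 on the log2 scale and the value for Lbh to 2.77. The other settings and each left-out library kept the log2 change between 2.97 and 3.23. The authors' deposited table, made with DESeq2, lists 3.13 for Lbh.

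Among 8761 other genes that averaged 5 CPM or more, those nearest to Lbh over the 6 libraries (Euclidean distance of centred log2 CPM) were Mid1, Trib1, Dusp7, D8Ertd82e and Dusp6, at 0.35, 0.42, 0.44, 0.52 and 0.52 log2 units. Mid1, a microtubule-associated ubiquitin ligase, went from 4.38 ± 0.80 to 39.5 ± 9.56 CPM (SD, n = 3 each). Trib1, a pseudokinase that directs proteins to degradation, went from 15.2 ± 2.36 to 148 ± 45.2 CPM. Dusp6 and Dusp7 encode phosphatases that switch off ERK. Dusp6 went from 34.2 ± 5.25 to 304 ± 67.8 CPM and Dusp7 from 19.96 ± 4.18 to 139 ± 26.9. Likeness over 6 libraries of the same 2 treatments is mainly a likeness in the size of the treatment difference, and the genes share those libraries and their depth. Lbh had the highest CPM of the 6 genes in both groups, although CPM is not per length and does not rank transcripts.

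Lbh lies on the plus strand of chromosome 17 (mm10, chr17:72918305-72941946), and no other RefSeq gene span overlaps it. A RefSeq long noncoding RNA, Gm30375 (chr17:72914744-72918155), ends 0.15 kb before its start and is not named in the count tables. The 250 bases before the start are printed because the strongest acetylated region at the gene reaches into them and yet had no higher mean signal with FGF-2. They come from RefSeq (GRCm38.p6, chr17:72918055-72918304, plus strand, 5′ to 3′), and capitals mark a CRE half-site (TGACG) and a TATA box (TATAAA).
Lbh upstream window: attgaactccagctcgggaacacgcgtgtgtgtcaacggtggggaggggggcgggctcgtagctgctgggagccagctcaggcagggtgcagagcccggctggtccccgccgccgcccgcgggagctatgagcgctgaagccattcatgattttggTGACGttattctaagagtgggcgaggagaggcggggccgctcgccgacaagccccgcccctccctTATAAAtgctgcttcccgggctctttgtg

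The window is 64.8% G and C, against a median of 52.4% over 32851 RefSeq windows of the same kind and length, and holds 21 CpG dinucleotides (0.81 of the number its base composition gives). TATAAA starts at -29 and TGACG at -94, counting back from the gene's start. The GC box GGGCGG matched 3 times, at -202, -138 and -41. Searched on both strands, TATAAA occurs in 12.4% of all windows, TGACG in 17.8% and GGGCGG in 32.7%. These 3 motifs were searched after the sequence had been seen, and TGACG is contained in the full CRE searched below. No match to these letters lies in the Lbh window for AP-1 (TGANTCA, in 6.75% of windows), ETS (CCGGAAGT, 2.88%), the full CRE (TGACGTCA, 1.55%), NR5A1 (CAAGGTCA, 1.33%), TCF/LEF (ATCAAAG, 3.21%), the E-box (CACGTG, 6.02%), forkhead factors (GTAAACA, 3.17%) or TEAD (ACATTCC, 3.25%). A match is a string of letters and not a measured binding site.

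The 13 Lbh regions fall into a promoter pair and 11 intergenic regions downstream of the gene. Across them the authors marked 1 as FGF_up, their mark for a false discovery rate under 0.05 with a log2 fold above 1, and 0 as FGF_down. Among all regions 7.17% carried FGF_up and 1.23% FGF_down. In 6 of the 13 both FGF-2 libraries stood above both serum libraries (33.6% of all regions did) and in 1 both stood below (18% did). The authors' median log2 fold was 0.25 over the 13 regions and 0.11 over all regions. Lbh had more regions than most genes: the median over 13028 genes with any region was 2, and 2.84% of them had as many as Lbh or more.

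The upstream promoter region (chr17:72917311-72918148) lies over the end of Gm30375 and takes in the first 94 bases of the printed window. Its signal, in reads scaled by the authors to a common depth, was 203 and 146 with serum alone and 131 and 154 with FGF-2. The second promoter region (chr17:72918331-72919780) starts 182 bp after the first ends and covers the beginning of the gene. Its signal was 103 and 67.7 with serum alone and 67.5 and 90 with FGF-2. In both regions the groups overlapped, with serum library 1 highest, and the authors' log2 folds were -0.29 and -0.12. Per kb of width, the upstream region carried 208 with serum alone and 170 with FGF-2, the most of all Lbh regions in both groups. Its peaks stood 40.3- and 28.0-fold over background in the serum libraries and 27.8- and 29.7-fold in the FGF-2 libraries.

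Downstream, the nearest 5 regions lie 36.9 to 47.8 kb from the start of Lbh, 13.2 to 24.2 kb past its end. Their widths were 314 to 1498 bp, and the authors' log2 folds ran from -0.84 to 0.25. The largest in signal, at 47.8 kb (chr17:72966127-72967624), read 73.7 and 47.6 with serum alone and 70.4 and 74 with FGF-2. Its groups overlapped, as they did at 37.5, 40.7 and 47.3 kb. The region at 36.9 kb (chr17:72955195-72955587) read 31.3 and 15.9 with serum alone and 13.3 and 13 with FGF-2, and here both FGF-2 libraries were the lower.

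**Figure D2:**
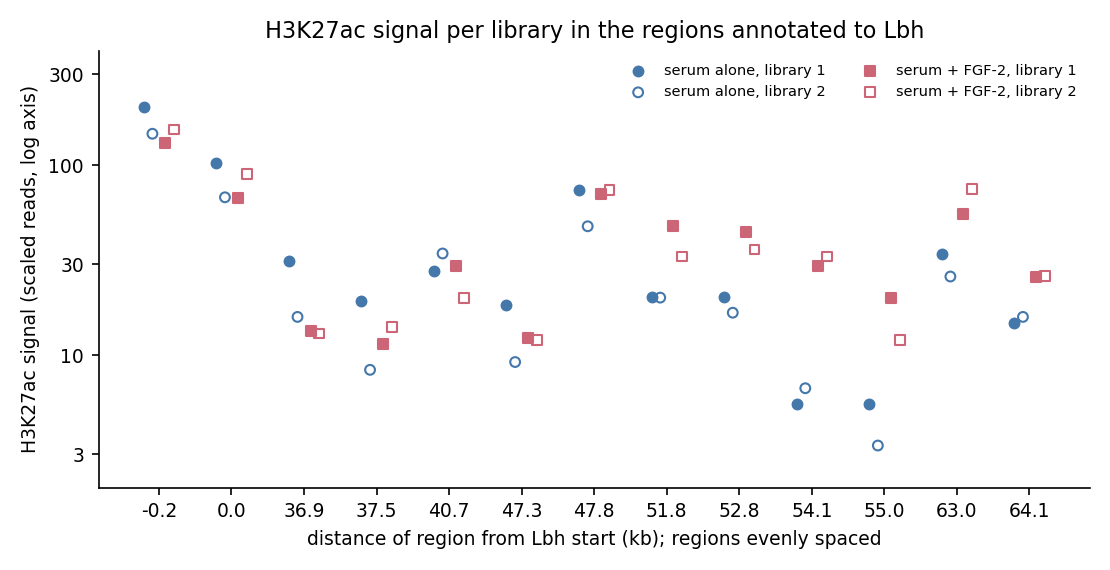
H3K27ac signal (scaled reads, log axis) of the 13 regions annotated to Lbh, ordered by distance from its start, with circles for serum alone, squares for FGF-2, filled for library 1 and open for library 2. At the promoter and up to 47.8 kb the groups are mixed, except at 36.9 kb where both squares lie lower, and from 51.8 kb on both squares lie above both circles.

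The farther 6 regions, 51.8 to 64.1 kb from the start and 28.1 to 40.4 kb past the end of Lbh, all had both FGF-2 libraries above both serum libraries. The division of the downstream regions at this point was made after their values had been seen. The region marked FGF_up, at 54.1 kb (chr17:72972359-72973033, 675 bp), read 5.52 and 6.69 with serum alone and 29.5 and 33 with FGF-2. These values stand for 6 and 8 reads against 31 and 33. Serum signal here was low in both libraries and no peak was called in either, and both FGF-2 libraries had a peak, 5.56- and 6.71-fold over background. Peaks were called per library, and serum library 2 had the deep input and the lowest share of fragments in regions; the part of these in where peaks were called was not tested. The ratio of means was 5.12 and the authors' log2 fold 2.36. Per kb, the signal went from 9.04 to 46.3, still below that of either promoter region.

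The region next to it, at 55.0 kb (chr17:72973260-72973554, 295 bp), read 5.52 and 3.34 with serum alone and 19.97 and 12 with FGF-2. These were 6 and 4 reads against 21 and 12, with peaks only in the FGF-2 libraries, and the ratio of 3.61 rests on these few reads. This region and the one at 54.1 kb entered the region table through peaks of the group where they are high, which favoured large ratios. At 51.8 kb the signal was 20.3 and 20.1 with serum alone and 47.6 and 33 with FGF-2. At 52.8 kb (chr17:72971100-72971757) it was 20.3 and 16.7 against 44.7 and 36. Both of these were already called as peaks in both serum libraries, and their ratios were 2.00 and 2.18. The strongest of the 6 regions, at 63.0 kb (chr17:72981268-72982255, 988 bp), read 34.1 and 25.9 with serum alone and 55.2 and 75 with FGF-2, a ratio of 2.17. At 64.1 kb the values were 14.7 and 15.9 against 25.7 and 26.

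Summed over the 13 regions (9448 bp), the signal was 576 and 418 with serum alone and 558 and 592 with FGF-2, a ratio of means of 1.16 with overlapping groups. The promoter pair (2288 bp) summed to 306 and 214 with serum alone and to 199 and 244 with FGF-2, a ratio of 0.852. The nearer 5 downstream regions (3201 bp) gave a ratio of 0.945. In the farther 6 (3959 bp) the sum went from 100.4 and 88.6 to 223 and 215, a ratio of 2.32. Their share of all Lbh signal was 17.4% and 21.2% with serum alone and 39.9% and 36.3% with FGF-2, while the promoter pair held 53.0% and 51.2% and then 35.6% and 41.2%. The same 13 regions were summed in every library. Serum library 1 was above serum library 2 in the total and at the promoter. Serum library 2 alone, at 418 and 214, lay below both FGF-2 libraries in the total and between them at the promoter. Since the farther group was delimited after its values had been seen, its larger share with FGF-2 is only a description, and the shares of the other groups move with it.

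**Figure D3:**
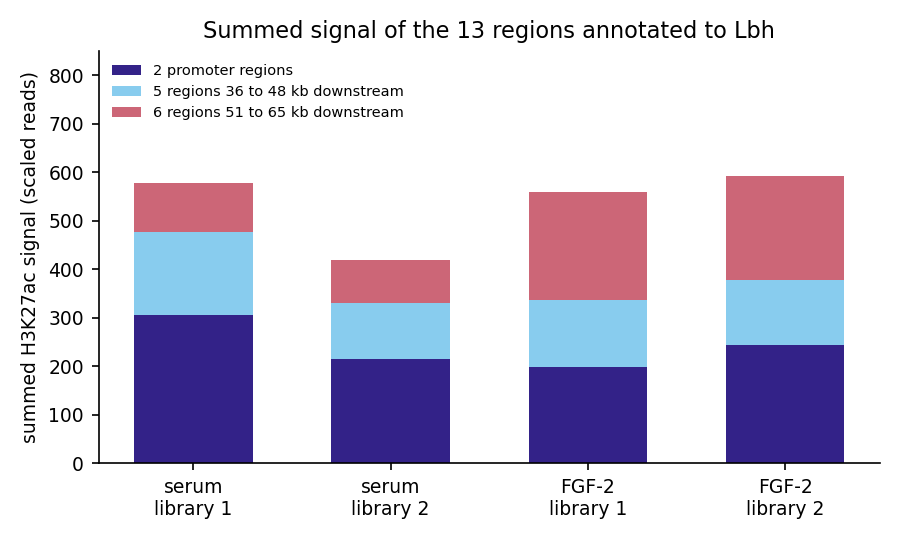
Summed H3K27ac signal (scaled reads) of the 13 regions annotated to Lbh in each library, stacked by the promoter pair, the nearer 5 and the farther 6 downstream regions. The farther group goes from 100.4 and 88.6 with serum alone to 223 and 215 with FGF-2, while the total overlaps between groups.

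For comparison with Lbh, 135 genes were called with a log2 RNA change of at least 3 and 48 of them, Lbh included, had a promoter region in the table. The median log2 fold of their strongest promoter region was 0.72 (quartiles 0.13 and 1.24), against 0.04 over the 10235 genes with such a region. Lbh, at -0.29, was 1 of 9 at or below 0, and 5 genes, Lbh among them, were at or below its value. The promoter was marked FGF_up in 16 of the 48. Another 13, Lbh among them, had a marked region outside promoters without a marked promoter, and 19 had neither. Regions outside promoters here include those in introns and exons, while the marked region of Lbh is intergenic. The share of all genes with each pattern is not given here. The rest of the 135 genes had no promoter region to compare. Lbh thus lay below the lower quartile of these promoters without being alone there. These genes were chosen by the same RNA contrast, and no test was made.

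**Figure D4:**
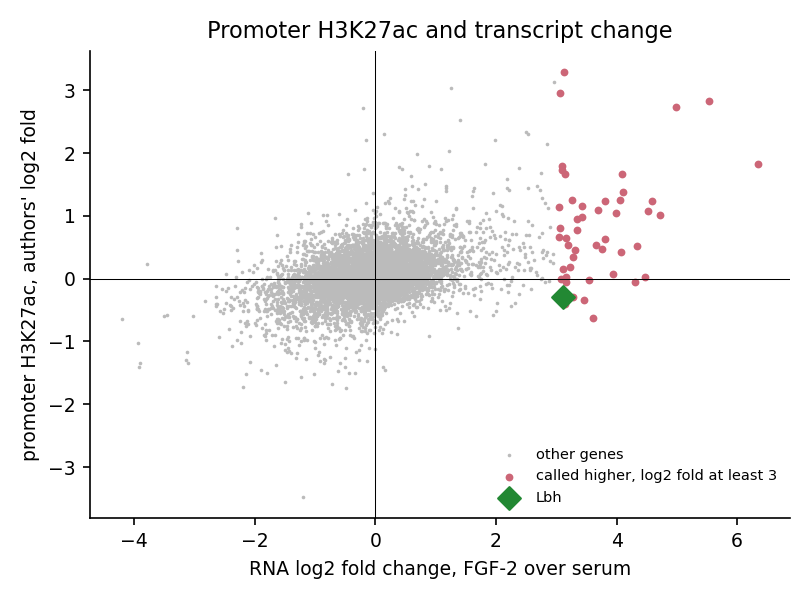
RNA log2 fold change of each gene against the authors' log2 fold of its strongest promoter H3K27ac region, FGF-2 over serum alone, for 8197 genes, with genes raised by at least 3 on the log2 scale in colour and Lbh marked. Lbh lies at 3.11 and -0.29, below most of the genes in colour.

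Beyond the regions annotated to Lbh, the region with the largest ratio lay 156.7 kb from its start, 133 kb past its end (chr17:73074966-73076139, 1174 bp). It read 7.37 and 3.34 with serum alone and 60.9 and 50 with FGF-2, or 8 and 4 reads against 64 and 50. Neither serum library had a peak and both FGF-2 libraries did, and the groups were far apart, at a ratio of 10.4. The region thus entered the region table through peaks of the group where it is high. A higher value with FGF-2 was favoured by that, so the adjusted p-values below describe the region and are not independent support. With limma on log2(signal + 1) over all 40772 regions the change was 3.22 ± 0.48 (SE), with an adjusted p over all regions of 1.70e-09. The highest adjusted p of the settings that kept every library was 0.000441, with edgeR on reads recovered from the signal. Leaving out each library in turn kept the log2 change between 2.75 and 3.69. The authors marked the region FGF_up, with a log2 fold of 3.37. They annotated it to Lclat1, whose start lies 31.8 kb farther on, and it falls within the span of the RefSeq long noncoding RNA Gm41616 (chr17:73071777-73084583), which the count tables do not name. Which gene, if any, the region acts on was not measured.

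**Figure D5:**
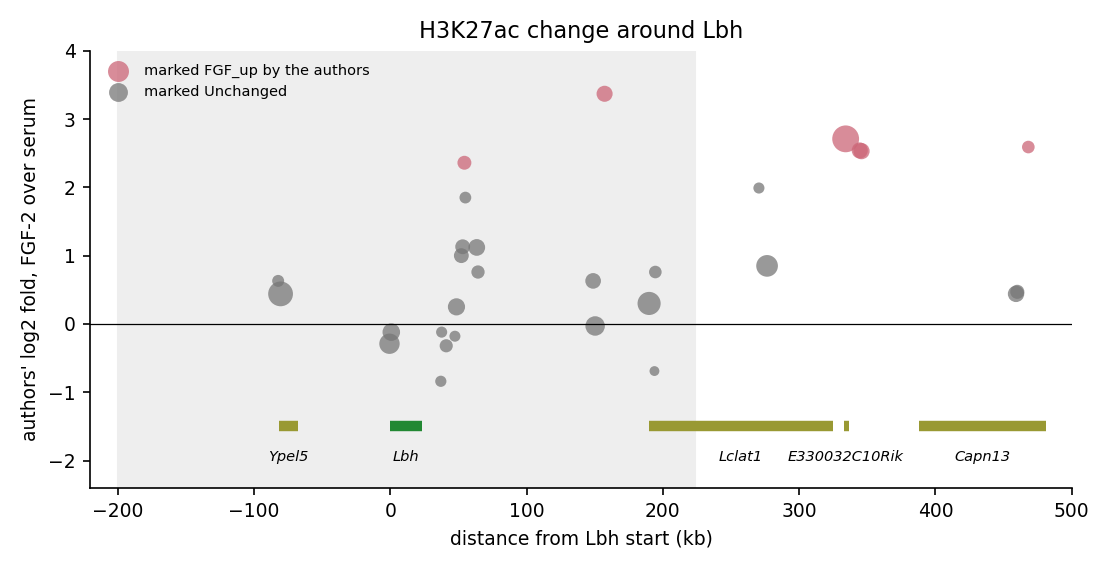
Authors' log2 fold of H3K27ac, FGF-2 over serum alone, for each region by distance from the start of Lbh, with larger points for higher FGF-2 signal, gene spans as bars and the window of 200 kb in grey. Within the window the regions marked FGF_up lie at 54.1 and 156.7 kb, and 4 more lie to the right of it.

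None of the other 7 regions in the window passed limma's threshold, so that 1 of the 8 not annotated to Lbh was called higher and 0 lower, where 12.8% and 3.83% of all regions were. In simulated data this limma fit called 34.7% of true 2-fold changes and 82.9% of 4-fold ones. A region that was not called is therefore not shown to be unchanged. The simulation changed a far smaller share of regions than was called here and used 1 dispersion for all, so its rates may differ from those in these data. The narrow region just before the Ypel5 promoter, at -82.1 kb (chr17:72835909-72836196), read 12.9 and 9.19 with serum alone and 15.2 and 19 with FGF-2, both FGF-2 libraries higher, with an adjusted p of 0.53 by limma. The strong promoter region of Ypel5, a zinc-binding protein of the Yippee family (chr17:72836655-72838976), read 274 and 188 with serum alone and 300 and 326 with FGF-2, with an adjusted p of 0.23 by limma. The groups did not overlap. The log2 change of 0.46 became 0.73 without serum library 1 and 0.19 without serum library 2. Each of these fits leaves 1 serum library, so no p is given for them. Serum library 2 had 28.0% of its fragments in regions against 34.1% to 35.3% in the others, and the part of this was not tested. The promoter region of Lclat1 (chr17:73107382-73109031) read 227 and 157 with serum alone and 217 and 257 with FGF-2, with an adjusted p of 0.469 by limma and overlapping groups. Its log2 change of 0.32 became 0.58 without serum library 1 and 0.06 without serum library 2. At 148.5 kb both FGF-2 libraries were higher (49.5 and 50 against 35.0 and 29.3) and at 149.4 kb the groups overlapped. Within introns of Lclat1, the region at 193.7 kb had peaks only in the serum libraries (10.1 and 15.0 against 7.61 and 8), and the one at 194.3 kb only in the FGF-2 libraries (12.9 and 11.7 against 25.7 and 16). Over all 21 regions, 13 had a peak in all 4 libraries, 4 in both FGF-2 libraries and in neither serum library, and 1 the reverse. The share of all 40772 regions with each pattern is not given here. Over the genome the FGF-2 libraries had more peaks (50317 and 46712) than the serum libraries (44340 and 41975), so these counts are not read as particular to Lbh.

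The last region inside the window lay 171 kb from Lbh and the first outside 247 kb away. That one read 5.52 and 0.84 with serum alone and 14.3 and 11 with FGF-2. Farther out, a wide region of 4607 bp over the long noncoding RNA E330032C10Rik, 332 kb from the start of Lbh, read 52.5 and 78.6 with serum alone and 446 and 414 with FGF-2, marked FGF_up with a log2 fold of 2.71. The window therefore sets the count: 2 of 21 regions carried the mark within 200 kb, 1 of 15 within 100 kb and 6 of 29 within 500 kb.

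Few neighbours could be compared with Lbh. Of 15 RefSeq genes within 500 kb, Lbh included, the count tables name 5. Lclat1, a lysocardiolipin acyltransferase that remodels membrane phospholipids, starts 166 kb past Lbh and had 98.4, 103 and 156 CPM with serum alone and 172, 164 and 175 with FGF-2. The groups did not overlap, and serum library 3 lay close to the FGF-2 libraries. Its log2 fold change was 0.52 ± 0.17 (SE; 119 ± 32.2 to 170 ± 5.72 CPM, n = 3 each), with an edgeR adjusted p of 0.0296. The call ended with upper-quartile scaling (adjusted p = 0.0908), with library totals (0.306) and without serum library 1 or 2 or any 1 of the FGF-2 libraries (0.0560 to 0.117). Capn13, a calpain protease, had 0 counts in each serum library and 3, 2 and 2 with FGF-2, which is at or under the 3 counts used as a floor. Alk, a receptor tyrosine kinase, had a single read in FGF-2 library 3. Ypel5 is listed at 0 in every library despite its acetylated promoter. A listing at 0 was not read as silence, since 307 of 4621 genes (6.64%) with promoter signal at or above that of Lbh are listed at 0 throughout, Atp6v1a and Cap1 among them.

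Because Lbh is known as a Wnt target and from limb and heart, 2 lists were read beside it. Of 20 Wnt/beta-catenin target genes, 11 could be tested and 3 were called higher and 0 lower, where 22.1% and 24.2% of all tested genes were, with a median log2 change of 0.06 against -0.02 over all tested genes. Tnfrsf19, a receptor of the tumour necrosis factor family, rose from 61.1 ± 14.1 to 322 ± 22.1 CPM (log2 2.40 ± 0.16 SE, edgeR adjusted p = 9.62e-06). Cd44, the hyaluronan receptor, rose from 1279 ± 694 to 4771 ± 734 CPM (log2 1.90 ± 0.36, edgeR adjusted p = 0.00375), with serum library 3 high at 2079. Axin2, the feedback inhibitor most often used as a readout of the pathway, was at 116 ± 43.0 and 115 ± 54.6 CPM (edgeR adjusted p = 0.995). Lef1, Tcf7l2, Nkd2 and Dkk1 are listed at 0. Upper-quartile scaling and library totals each put 1 member lower.

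Of 20 heart and limb transcription factors, 8 could be tested, 1 was called higher and 2 lower, where 22.1% and 24.2% of all tested genes were, with a median log2 change of 0.06. Twist1, a mesenchymal basic helix-loop-helix factor, rose from 27.7 ± 2.00 to 98.6 ± 25.1 CPM (log2 1.83 ± 0.19, edgeR adjusted p = 9.06e-05). Meis1, a homeobox partner of Hox proteins, fell from 5.96 ± 0.63 to 2.31 ± 0.44 CPM (edgeR adjusted p = 0.00163). Prrx1, a homeobox factor of limb mesenchyme, fell on the log2 scale by 1.35 ± 0.41 (edgeR adjusted p = 0.0215), and that call ended when library 1 or 3 of either group was left out (0.0508 to 0.0979). Nkx2-5 and 9 other members are listed at 0 in all libraries. Lbh at 8.63-fold exceeded every called member of both lists in size of change, but it was chosen with that change already known.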

How the data were processed

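For RNA the authors deposited raw HTSeq counts, 1 value per gene symbol. Their DESeq2 table, also deposited, holds log2 fold changes, SEs, a Wald statistic (a score), p-values and a mean signal. Peaks were called by the authors per library with MACS2 against its input at q of 0.01, per the file headers, with a fold (ratio over background), a pileup signal and −log10 q and p. In the region table the authors deposited a signal per library, log2 mean signal, log2 folds, p-values and false discovery rates. That signal came out as whole reads times a factor per library (100% of values within 0.02 reads). Not given in the sources used here are the HTSeq strand setting and annotation, and whether input reads were subtracted. The submitters' processing notes name STAR 2.5.2a, SAMtools 1.1, bedtools 2.15.0, MACS2 2.2.6, HTSeq 0.10.0, bcl2fastq, DiffBind, ChIPseeker, DESeq2 and mm10.

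Groups came from the treatment labels. RNA was tested with edgeR 4.0.16 (quasi-likelihood, robust, TMM, filterByExpr) in R 4.3.3, and region signal with limma 3.58.1 (trend) on log2(signal + 1), each over the whole table with Benjamini-Hochberg adjustment at 0.05. Fold changes of regions by limma are on that log2(signal + 1) scale, which understates changes of low regions. DESeq2 1.42.0 and limma-voom were alternatives, with other scalings, filters, a replicate block and each library left out. Recovered reads in edgeR, scaling to fragments and a crossed block were added after seeing the data. Reads in no gene or in several (37.0% to 43.2% per library) stayed out of library sizes. A floor of 3 counts was 0.264 to 0.543 CPM, for counting error only. Region positions are mm10 as deposited, gene positions and the promoter are RefSeq GRCm38.p6, and peaks overlapped regions by at least 1 base. Scripts were tested on simulated data. No column of per-sample values was left unmapped.

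Members, lists and tests were chosen with earlier results of these data known. Named were Lbh, measured genes within 500 kb, up to 2 members called each way per list by smallest p, the 5 genes nearest to Lbh in profile, and each region annotated to Lbh or within 200 kb. Axin2, Star, and the genes and regions named beyond these, were chosen after their values were seen.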

Additional observations from a re-analysis of the deposited data

Results flagged for a closer look

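Within 200 kb of Lbh, 9 of the authors' peaks lie outside their region table and so entered no comparison, each called in a single library. Of these, 7 were called with FGF-2 where neither serum library had a peak. These are calls in data the comparisons did not use. Signal at these positions was not measured in the libraries without a call, so a missing peak does not show a lower signal, and none of the 7 was called in the other FGF-2 library. FGF-2 library 1 had 6 of them: 6.07-fold over background at -19.5 kb from the start of Lbh, 4.60-fold at 53.6 kb, 7.58-fold at 156.1 kb, 5.56-fold at both 158.1 and 158.6 kb, and 7.91-fold at 167.1 kb. FGF-2 library 2 had 1, 4.24-fold at 154.5 kb, next to a peak of serum library 1 at 153.8 kb. The peak at 53.6 kb lies between the table's regions at 52.8 and 54.1 kb, and those at 156.1, 158.1 and 158.6 kb flank the region at 156.7 kb. The serum libraries had 2 such peaks of their own, 7.01-fold at 41.7 kb in library 2 and 4.91-fold at 153.8 kb in library 1. FGF-2 library 1 also had the most peaks over the genome, 50317 against 41975 to 46712 in the others, and the part of this in the 6 peaks was not tested.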

How the results depend on the processing

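No called result changed direction, while the log2 changes of the second promoter region and of those at 37.5, 47.3, 47.8 and 149.4 kb, none of them called, changed sign in some settings. With library totals alone, 1035 genes were called higher and 4675 lower (upper-quartile scaling gave 1616 and 3320), and the log2 change of Lbh was 2.77. The lower count of the Wnt list was 1 with upper-quartile scaling, library totals or the RNA replicate block, and the higher count of the heart and limb list was 2 without the low-count filter. Leaving out 1 library gave 3 to 5 Wnt genes higher and 0 to 1 lower, 1 to 3 heart and limb genes lower, 1843 to 6695 regions higher and 687 to 2442 lower and 1 to 3 of the 8 regions not annotated to Lbh higher. The replicate block called 2375 genes higher and 2642 lower, and in H3K27ac 4052 regions higher and 959 lower. The RNA numbers were not taken as pairs: same-numbered libraries deviated with r of -0.10, 0.07 and 0.38, and libraries 1 and 2 correlated best with the opposite number (serum 1 with FGF-2 2 at 0.32, serum 2 with FGF-2 1 at 0.38). Same-numbered H3K27ac libraries deviated oppositely (r = -0.22), and the crossed pairing called 6236 regions higher and 2197 lower. Keeping regions with a mean signal of at least 20 gave 3111 higher and 994 lower. edgeR on recovered reads called 2726 lower, and the authors' false discovery rates 3398 higher and 670 lower. Windows of 100 and 500 kb held 1 and 6 regions marked FGF_up. At a −log10 q of at least 5, 0 regions had peaks only in both serum libraries, and at an overlap of 50%, 7 had a peak in all 4. With 2 libraries per group and as few as 3.34 scaled reads, ratios of the weak far regions are imprecise.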
